A study of Arabidopsis thaliana with 24 samples.

Results

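Rosettes of Arabidopsis that had spent 78 h at 10 °C were compared with rosettes that had spent 6 h there, to follow how the transcript response to chilling changes over time. The groups were taken from the sample labels, and they comprise 4 of the 24 arrays in the series, 2 per harvest, marked A and B. The 4 arrays of plants held at 20 °C, harvested at 78 h and 6 h in the same way, gave the background that was subtracted. All 22746 probe sets for plant transcripts were used. The plants were of genotype Columbia-0, were raised in soil at 20 °C with equal hours of light and darkness, and were about 4 weeks old when they were moved, 4 h after the light came on. One set was brought to 10 °C and the other was kept at 20 °C. Both harvests took place 10 h into the light, so the 2 times are compared at the same hour of the day, and the 78 h plants of either temperature are 72 h older. A sample pooled 3 whole rosettes. The labels do not say whether A and B came from separately grown plants, so the spread between these samples may be technical. The p-values measure only the spread that is left once a difference between A and B shared by all groups is fitted. That remaining spread was estimated over all 24 arrays. In whole rosettes, fewer cells of a type and less RNA per cell cannot be told apart.

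When Arabidopsis is chilled, transcription factors are induced in a fast wave, among them the CBF family and zinc finger repressors such as STZ. The CBF factors switch on the cold-regulated (COR) genes and dehydrins, small hydrophilic proteins that protect membranes and other proteins. A slower acclimation follows over days. Sucrose and other sugars accumulate, anthocyanins are made from flavonoid precursors, photosynthetic metabolism is readjusted, and protein synthesis is adapted to the low temperature. A comparison of 78 h with 6 h at a constant 10 °C separates transcripts of the first wave that do not last from those that build up later.

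The A and B arrays of the same group correlated at 0.990 (78 h) and 0.984 (6 h) across probe sets at 10 °C. The A arrays as a whole differed from the B arrays: the A minus B differences of any pair of the 4 groups correlated between 0.59 and 0.75. The letter was therefore fitted as a replicate block, and values are given for both letters. The rosette label was checked against marker genes. The photosystem genes PSAN and PSBW had log2 signals between 13.25 and 13.75 on all 8 arrays, against array medians of 7.15 to 7.25. Of the 8 measured markers of roots, pollen and seeds, 6 averaged between 4.38 and 5.97, among them the root hair genes EXPA7 and EXPA18, the pollen genes AT3G07820 and AT5G48140 and the seed gene AT2G28490. The other two lay above the array medians. They were the pollen list's AT2G16630, with an average of 8.39, and the root list's PYK10, with 7.76 to 9.94 on the 8 arrays. PYK10, a beta-glucosidase, was the 1 marker of the 8 that passed the test between the harvests at 10 °C.

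Between 78 h and 6 h at 10 °C, 3350 of the 22746 probe sets changed (14.7% of those tested, limma with Benjamini-Hochberg adjusted p below 0.05). The signal was higher at 78 h for 2114 (9.29%) and lower for 1236 (5.43%). All 3350 moved in the same direction in A and in B. The test itself favours such probe sets, because letters that disagree raise the SE, so this is no separate support. Most of the changes were small, with a median size of 0.45 log2 units. At least 2-fold differences were more frequent among the lower probe sets, 155 (0.681% of those tested), than among the higher ones, 81 (0.356%). The split depended on the scaling: after cyclic loess 1528 were higher and 1642 lower. Without the replicate block 798 passed, 526 higher and 272 lower, and 1522 passed when the 6 h A array of 10 °C was left out.

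The same interval at 20 °C gave 0 calls with limma (0%), with 1736 probe sets at an unadjusted p below 0.05 and 8 calls with a separate letter term for each harvest. A and B did not share a pattern there: across probe sets their 78 h minus 6 h differences correlated at 0.54 at 10 °C and at 0.03 at 20 °C. The change at 10 °C minus that at 20 °C, called the difference from 20 °C below, passed the test for 1577 probe sets (6.93%), 984 positive (4.33%) and 593 negative (2.61%). Both tests were passed in the same direction by 933 higher (4.1%) and 526 lower (2.31%) probe sets. Without the replicate block 93 probe sets passed the test of the difference, and 595 did when the 6 h A array of 10 °C was left out. A single gene was listed for 13513 of the probe sets, of which 1838 were called at 10 °C. The genes described next come from these. Over all probe sets the change at 10 °C ran from -3.07 to 3.76, a wider span than among these 1838, so the most extreme changes are not described.

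**Figure D1:**
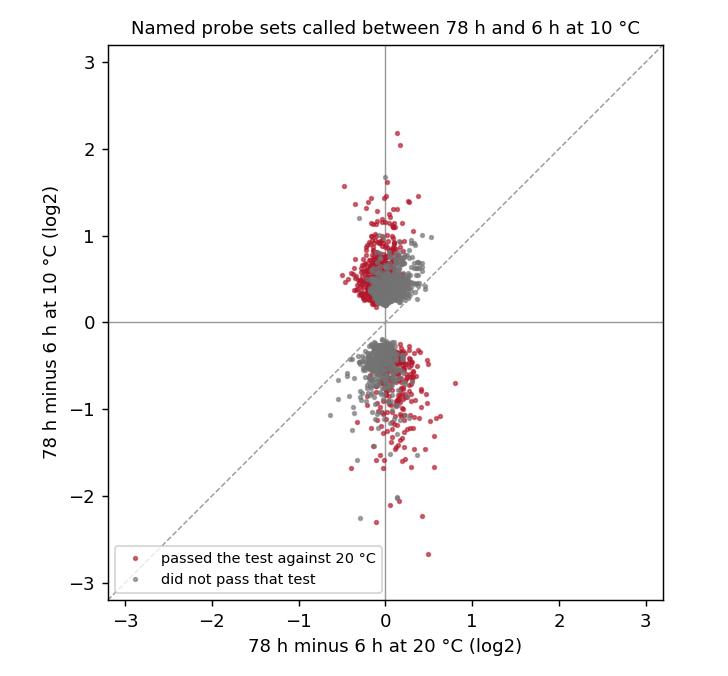
Each of the 1838 points is a probe set with 1 listed gene that was called between 78 h and 6 h at 10 °C. The vertical axis gives that difference in log2 units and the horizontal axis the 78 h minus 6 h difference at 20 °C, with equal scales and a dashed line of equality. The points span from -2.66 to 2.18 at 10 °C and from -0.64 to 0.80 at 20 °C, and 771 passed the test against 20 °C in the same direction (red).

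The first group were classical cold genes that stood highest at 6 h and lower at 78 h. COR47, a dehydrin, had log2 signals of 12.93 and 11.58 (A and B) at 78 h, against 14.17 and 13.68 at 6 h, at 10 °C. At 20 °C it had 12.23 and 10.93 at 78 h, against 11.57 and 10.46 at 6 h. The 10 °C harvests did not overlap, and in each letter the 78 h value still lay above both 20 °C values of that letter. COR47 fell by 1.67 ± 0.20 (SE) log2 units, 3.18-fold (adjusted p = 7.74e-05, and 0.345 without the block), and its difference from 20 °C was -2.23 ± 0.28 (adjusted p = 0.000408).

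The dehydrin LTI30 had signals of 12.96 and 11.99 at 78 h, against 13.78 and 13.60 at 6 h, at 10 °C. At 20 °C its values were 9.91 and 9.09 at 78 h and 9.59 and 8.77 at 6 h. Its fall over time was thus small beside its distance from the 20 °C plants, which was 2.98 at 78 h and 4.51 at 6 h. LTI30 fell by 1.22 ± 0.21 (adjusted p = 0.00118, and 0.293 without the block), with a difference from 20 °C of -1.54 ± 0.29 (adjusted p = 0.00635).

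COR15A and COR15B, which encode chloroplast proteins that protect membranes during freezing, belong to the same list. COR15A had signals of 14.22 and 14.18 at 78 h, against 14.11 and 14.30 at 6 h, and COR15B had 13.82 and 13.60, against 13.69 and 13.93. The harvests overlapped for both genes. Their changes were -0.01 ± 0.11 for COR15A and -0.10 ± 0.14 for COR15B, and neither passed the test (adjusted p = 0.977 and 0.738). Both lay above their 20 °C values at either harvest, by 0.84 at 78 h and 0.90 at 6 h for COR15A. Their signals were among the brightest on the arrays. Of the 15 COR genes and dehydrins in the list, 4 were on probe sets with a single listed gene, and the 2 that changed both fell (5.43% of all probe sets were lower). The other entries of this and the next lists may lie on probe sets without a listed gene.

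COR27 and AT4G33980 (COR28), cold genes tied to the circadian clock, fell as well. COR27 had 9.82 and 9.52 at 78 h, against 11.25 and 10.84 at 6 h, at 10 °C, and between 9.56 and 9.92 on the 20 °C arrays. At 78 h it therefore overlapped with the 20 °C plants. It fell by 1.37 ± 0.18 (adjusted p = 0.000202), with a difference from 20 °C of -1.44 ± 0.26 (adjusted p = 0.00462). AT4G33980 fell by 1.44 ± 0.31 (adjusted p = 0.00499, and 0.339 without the block). The clock gene GIGANTEA (GI), which links the clock to flowering and freezing tolerance, had 10.68 and 9.77 at 78 h and 11.31 and 10.88 at 6 h. GI fell by 0.87 ± 0.14 (adjusted p = 0.000721, and 0.321 without the block), with a difference from 20 °C of -1.03 ± 0.20 (adjusted p = 0.00616). Of 2 measured clock genes it was the 1 that passed (5.43% of all probe sets were lower).

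The zinc finger repressor STZ had signals of 6.92 and 6.93 at 78 h, against 9.51 and 8.39 at 6 h, and between 6.18 and 6.77 at 20 °C. At 78 h it was near the 20 °C level on both arrays. STZ fell by 2.03 ± 0.51 (adjusted p = 0.0139, and 0.116 without the block). Its difference from 20 °C, -2.16 ± 0.72, did not pass (adjusted p = 0.0885). The DnaJ chaperone AT1G71000 had the same form, with 6.66 and 6.45 at 78 h and 9.14 and 8.48 at 6 h. It fell by 2.25 ± 0.42 (adjusted p = 0.00226), and its difference from 20 °C of -1.97 ± 0.60 did not pass (adjusted p = 0.0626). Leaving out either A array of 10 °C ended the call of STZ (adjusted p up to 0.134), and leaving out the 6 h A array or the 78 h B array of 10 °C ended that of AT4G33980 (up to 0.0636).

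**Figure D2:**
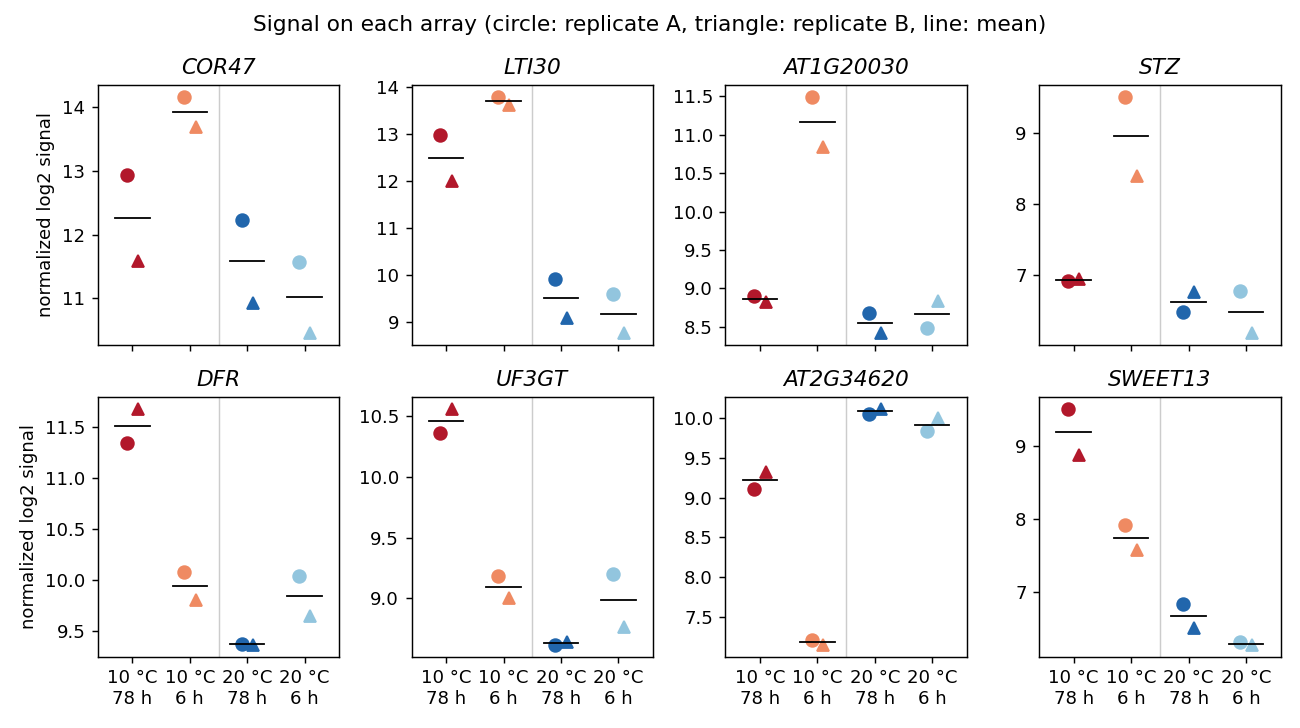
Normalized log2 signal of 8 genes on each of the 8 arrays, by temperature and harvest, with circles for replicate A, triangles for B and lines for means of 2. The upper row shows genes lower at 78 h than at 6 h at 10 °C, such as COR47 with 12.93 and 11.58 against 14.17 and 13.68, and the lower row genes that were higher, such as DFR with 11.35 and 11.68 against 10.08 and 9.80. The vertical scales differ between genes.

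The largest fall among the 1838 single-gene probe sets called at 10 °C was that of AT5G62360, of the invertase and pectin methylesterase inhibitor family. It had signals of 10.51 and 9.0 at 78 h, against 13.28 and 11.55 at 6 h, at 10 °C. At 20 °C it had 10.89 and 10.06 at 78 h and 10.46 and 9.50 at 6 h. In both letters the 6 h value at 10 °C stood above the other 3 conditions. It fell by 2.66 ± 0.22, 6.33-fold (adjusted p = 5.5e-06, and 0.15 without the block, with letters that differed by over 1 unit in each 10 °C group).

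The thaumatin-like proteins, secreted proteins related to a pathogenesis-related family, and the family 17 glucanases, which cleave glucans of the wall, form a list that was written after leading members had been seen. It is given as a description. AT1G20030, thaumatin-like, had 8.90 and 8.83 at 78 h, against 11.49 and 10.84 at 6 h, and between 8.42 and 8.84 at 20 °C. It fell by 2.30 ± 0.21 (adjusted p = 8.56e-06, and 0.000612 without the block). AT4G36010, also thaumatin-like, had 9.56 and 8.90 at 78 h and 11.98 and 10.60 at 6 h, and fell by 2.06 ± 0.32 (adjusted p = 0.000646). The glucanase AT1G32860 had 8.55 and 7.89 at 78 h and 10.70 and 9.95 at 6 h, against a range of 7.09 to 7.24 at 20 °C, so that it kept a distance of 1.01 from the 20 °C plants at 78 h. It fell by 2.10 ± 0.25 (adjusted p = 9.99e-05). The other glucanase, AT3G04010, fell by 2.02 ± 0.47 (adjusted p = 0.0089), with -3.05 in A and -0.98 in B. Its difference from 20 °C, -2.14 ± 0.66, did not pass (adjusted p = 0.067). Of the 7 measured members 4 fell (5.43% of all probe sets did), and the median of all 7 was -2.02, against 0.03 over all probe sets. The letters differed in size, with a median of -2.15 in A and -0.98 in B. The call of AT3G04010 was lost without either A array of 10 °C (adjusted p up to 0.169), and the difference from 20 °C of AT4G36010 without the 6 h A array of 10 °C (adjusted p = 0.0605).

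Further genes completed the 15 lowest differences from 20 °C. AT1G51090, a heavy-metal-associated domain protein, had 9.94 and 9.13 at 78 h and 12.29 and 11.24 at 6 h, against 8.17 to 9.46 at 20 °C. It fell by 2.23 ± 0.20 (adjusted p = 8.43e-06). The protein kinase AT3G59350 fell by 1.67 ± 0.16 and the PLATZ zinc finger gene AT1G76590 by 1.46 ± 0.20. The choline kinase AT4G09760, an enzyme of phosphatidylcholine synthesis, had 8.09 and 7.92 at 78 h and 9.68 and 9.52 at 6 h, and lay at 8.54 to 8.97 on the 20 °C arrays. It ended below the 20 °C plants on both 78 h arrays, and fell by 1.59 ± 0.15 (adjusted p = 1.12e-05, and 0.0011 without the block).

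AT3G55760, whose product binds starch in the chloroplast, had 9.53 and 9.01 at 78 h and 10.90 and 10.79 at 6 h. It fell by 1.57 ± 0.17 (adjusted p = 5.59e-05, and 0.0143 without the block), with a difference from 20 °C of -1.80 ± 0.25 (adjusted p = 0.000908). The alpha/beta hydrolase AT1G73480 fell by 1.30 ± 0.24 and the protein phosphatase AT3G05640 by 1.46 ± 0.33 (adjusted p = 0.00786). AT1G68500, AT2G15960 and AT1G22890, whose roles are not given in the annotation, fell by 1.68 ± 0.23, 1.10 ± 0.18 and 1.08 ± 0.31. For AT1G22890 the 10 °C harvests overlapped between the letters, with 5.91 and 5.06 at 78 h and 7.47 and 5.65 at 6 h (adjusted p = 0.0276).

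Among these 15 lower genes, the call at 10 °C held for 6 and that of the difference from 20 °C for 2 without the replicate block, and for 12 and 11 when any 1 of the 8 arrays was left out. The 6 h A array of 10 °C accounted for these numbers on its own, with 12 and 11 calls when it was left out. The calls at 10 °C that were lost in this way were those of AT1G73480 (adjusted p up to 0.0503), AT3G05640 (0.144) and AT1G22890 (0.32).

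The genes with the highest differences from 20 °C rose at 10 °C. AT2G34620, a gene of the mTERF family that acts in organelle gene expression, had signals of 9.11 and 9.33 at 78 h, against 7.21 and 7.15 at 6 h, at 10 °C. At 20 °C it had 10.05 and 10.12 at 78 h and 9.83 and 10.00 at 6 h. All 4 arrays of 20 °C lay above the 78 h arrays of 10 °C, and these lay above those of 6 h. It rose by 2.04 ± 0.11, 4.11-fold (adjusted p = 1.73e-07, and 2.11e-06 without the block), with a difference from 20 °C of 1.87 ± 0.16 (adjusted p = 4.16e-05).

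AT5G48490, a small lipid transfer protein related to the systemic resistance protein DIR1, had 9.92 and 9.63 at 78 h and 7.78 and 7.41 at 6 h, and between 8.27 and 8.54 at 20 °C. It was below the 20 °C plants at 6 h and above them at 78 h. It rose by 2.18 ± 0.23, 4.52-fold (adjusted p = 3.4e-05, and 0.000342 without the block). SECA2, an ATPase of protein translocation in the chloroplast, crossed the 20 °C level in the same way. It had 7.81 and 7.64 at 78 h and 6.23 and 6.35 at 6 h, against 6.92 to 7.34 at 20 °C, and rose by 1.43 ± 0.14 (adjusted p = 1.41e-05).

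The sulfotransferase gene AT2G03750 rose by 1.62 ± 0.21 and the alpha/beta hydrolase gene AT3G47560 by 1.39 ± 0.12. AT1G72030, an acetyltransferase of the GNAT family, had 10.01 and 10.26 at 78 h and 8.75 and 8.90 at 6 h, against 10.05 to 10.37 at 20 °C. On the 78 h arrays it thus overlapped with the 20 °C plants, and it rose by 1.31 ± 0.14 (adjusted p = 3.31e-05). AT1G60590, a pectin lyase-like protein, had 8.96 and 9.21 at 78 h and 7.64 and 7.62 at 6 h, against 8.78 to 9.16 at 20 °C. It rose by 1.46 ± 0.12 (adjusted p = 5.83e-06). AT5G19750, of the Mpv17 and PMP22 family of organelle membrane proteins, rose by 1.13 ± 0.09. AT1G23205, of the pectin methylesterase inhibitor family, rose by 1.17 ± 0.16, and AT1G68585, whose role is not given in the annotation, by 1.14 ± 0.13.

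RR16, a type-A response regulator that dampens cytokinin signalling, had 8.21 and 9.70 at 78 h and 7.01 and 8.63 at 6 h, so the letters differed more than the harvests. Within each letter it was higher at 78 h, and it rose by 1.14 ± 0.22 (adjusted p = 0.00284, and 0.725 without the block). TBL26, of a family that acetylates wall polysaccharides, had 10.45 and 10.60 at 78 h and 9.34 and 8.38 at 6 h. It rose by 1.67 ± 0.46 (adjusted p = 0.023, and 0.136 without the block), while its difference from 20 °C of 1.67 ± 0.65 did not pass (adjusted p = 0.15). AT1G23390, a kelch-repeat F-box protein, rose by 1.39 ± 0.22 (adjusted p = 0.000829). The tetratricopeptide repeat protein AT1G80130 had 10.79 and 10.35 at 78 h, 9.41 and 8.94 at 6 h and 7.98 to 8.32 at 20 °C, and rose by 1.40 ± 0.18 (adjusted p = 0.000149).

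Of the 15 genes with the highest difference from 20 °C, the call at 10 °C held for 11 and that of the difference for 7 without the replicate block. Leaving out any 1 of the 8 arrays kept 14 calls at 10 °C and 13 of the difference. The exceptions were AT4G14090 in both tests and RR16 in the difference (adjusted p up to 0.104). The call of TBL26 was lost without either 6 h array or the B array of 78 h at 10 °C (adjusted p up to 0.181), and the difference from 20 °C of AT1G23390 (adjusted p = 0.0478) without any 1 of the 8 arrays.

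Of the 18 genes in the list of flavonoid and anthocyanin synthesis 8 were measured, and 4 rose and 1 fell at 10 °C (9.29% of all probe sets were higher and 5.43% lower). Against 20 °C 4 were positive and 1 negative (4.33% and 2.61% of all), and without the replicate block 1 and 1. DFR, dihydroflavonol reductase, which commits flavonoid precursors to anthocyanins, had signals of 11.35 and 11.68 at 78 h, against 10.08 and 9.80 at 6 h, at 10 °C. At 20 °C it had 9.38 and 9.37 at 78 h and 10.04 and 9.65 at 6 h. At 6 h the 2 temperatures overlapped, and at 78 h the 10 °C arrays stood above all others. DFR rose by 1.58 ± 0.21, 2.98-fold (adjusted p = 0.000229, and 0.00496 without the block), and its difference from 20 °C was 2.05 ± 0.30 (adjusted p = 0.00147).

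UF3GT, a glycosyltransferase that adds xylose to anthocyanins, had 10.36 and 10.56 at 78 h, against 9.19 and 9.01 at 6 h, and between 8.62 and 9.20 at 20 °C. It rose by 1.37 ± 0.23 (adjusted p = 0.00111). AT4G14090, the anthocyanin 5-O-glucosyltransferase, had 10.33 and 10.42 at 78 h and 9.25 and 8.62 at 6 h. It rose by 1.44 ± 0.29 (adjusted p = 0.00353, and 0.126 without the block), and its difference from 20 °C of 1.45 ± 0.41 was just past the threshold (adjusted p = 0.0457). AT5MAT, which attaches malonate to anthocyanins, was already 0.93 above 20 °C at 6 h and rose by a further 0.89 ± 0.18 (adjusted p = 0.0033).

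UGT78D3, which attaches arabinose to flavonols, went the other way, with 5.63 and 5.31 at 78 h and 6.86 and 7.26 at 6 h, against 5.10 to 5.29 at 20 °C. It fell by 1.59 ± 0.19 (adjusted p = 0.000102, and 0.000826 without the block). The chalcone isomerase-like gene CHIL had 10.11 and 8.81 at 78 h and 8.85 and 8.61 at 6 h, a change of 0.73 ± 0.32 that rested mostly on A (1.26, against 0.20 in B) and did not pass (adjusted p = 0.155). AT5MAT and CHIL lie outside the rule for named genes and were chosen after their values were seen. The call of AT4G14090 at 10 °C was lost without the B array of 78 h (adjusted p = 0.0628), and its difference from 20 °C without any of 7 arrays (up to 0.18). The difference from 20 °C of AT5MAT (adjusted p = 0.0469) was lost without any 1 of the 8 arrays (up to 0.148).

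Of 9 measured genes of sucrose synthesis, cleavage and sugar transport 3 rose (9.29% of all probe sets did), and the list's median was 0.20. SWEET13, a sucrose exporter of the plasma membrane, had signals of 9.51 and 8.88 at 78 h, against 7.91 and 7.57 at 6 h, at 10 °C. At 20 °C it had 6.84 and 6.51 at 78 h and 6.32 and 6.28 at 6 h. The 4 groups did not overlap, and the order was 10 °C at 78 h, 10 °C at 6 h, then 20 °C. SWEET13 rose by 1.45 ± 0.14, 2.73-fold (adjusted p = 1.64e-05, and 0.0103 without the block), and its difference from 20 °C was 1.08 ± 0.20 (adjusted p = 0.00567).

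ATSPS4F, a sucrose phosphate synthase, had 9.95 and 9.70 at 78 h, against 8.80 and 8.54 at 6 h, and 9.10 to 9.50 at 20 °C. It rose by 1.16 ± 0.19 (adjusted p = 0.000904, and 0.00768 without the block). AT2G35840, a sucrose phosphate phosphatase that acts on the product of this enzyme, had 10.83 and 10.65 at 78 h and 10.05 and 10.06 at 6 h, and rose by 0.69 ± 0.09 (adjusted p = 0.000158). Without the block the calls of these 3 at 10 °C held, and 0 of their 3 differences from 20 °C did. APL3 encodes one of the regulatory subunits of the enzyme that makes ADP-glucose, the precursor of starch. It had 9.58 and 9.36 at 78 h and 8.29 and 8.32 at 6 h, against 8.27 to 8.53 at 20 °C. At 6 h it was at the 20 °C level, and it rose by 1.16 ± 0.17 (adjusted p = 0.00034, and 0.00272 without the block). It was the 1 of 3 measured genes of starch synthesis that passed (9.29% of all probe sets were higher and 5.43% lower). Neither of the 2 measured genes of starch degradation passed the test (adjusted p of 0.169 or higher). After cyclic loess 1 gene of each list was lower. Such small lists do not set synthesis apart from degradation. The difference from 20 °C of ATSPS4F and of AT2G35840 was lost without some single arrays (adjusted p up to 0.0647 and 0.0631).

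Of 7 measured genes of chlorophyll synthesis 3 rose (9.29% of all probe sets did). CHLI2, a subunit of the magnesium chelatase of chlorophyll synthesis, had 10.90 and 11.12 at 78 h, against 10.21 and 10.42 at 6 h, and 10.24 to 10.51 at 20 °C. It rose by 0.70 ± 0.07 (adjusted p = 1.7e-05, and 0.00435 without the block), with a difference from 20 °C of 0.63 ± 0.10 (adjusted p = 0.00181). GSA1, of the first steps of the same pathway, rose by 0.42 ± 0.08 and CHLM, a methyltransferase further down, by 0.34 ± 0.10. In the Calvin cycle 2 of 4 measured genes rose (9.29% of all probe sets did). SBPASE, sedoheptulose bisphosphatase, rose by 0.45 ± 0.07 (adjusted p = 0.000934) and the phosphoglycerate kinase AT1G56190 by 0.26 ± 0.08 (adjusted p = 0.0287). The differences of these 2 genes from 20 °C did not pass (adjusted p = 0.0551 and 0.176). Of the 4 Calvin cycle genes 1 was higher after cyclic loess and 0 without the replicate block.

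Of 4 measured photosystem subunits 3 fell (5.43% of all probe sets did). PSAN, of photosystem I, had 13.29 and 13.37 at 78 h, against 13.71 and 13.75 at 6 h, and 13.65 to 13.72 at 20 °C. It fell by 0.40 ± 0.06 (adjusted p = 0.000576, and 0.0106 without the block). PSAE-1 of photosystem I fell by 0.28 ± 0.05 and PSBW of photosystem II by 0.28 ± 0.09 (adjusted p = 0.0455), a call that was lost without any 1 of the 8 arrays (adjusted p up to 0.252). LHCB4.3, a minor antenna protein of photosystem II, rose by 0.93 ± 0.20 (adjusted p = 0.00476, and 0.126 without the block). Its relative LHCB4.2 had a change of -0.35 ± 0.13 that did not pass at 10 °C (adjusted p = 0.0948), while its difference from 20 °C of -0.73 ± 0.18 did (adjusted p = 0.0267, and up to 0.151 without 1 array). Of 69 genes encoded in the plastid 5 were lower at 78 h (5.43% of all probe sets were), and 16 were after cyclic loess. Of these psbD had the largest change, with -1.24 ± 0.31 (adjusted p = 0.0146, and 0.774 without the block). Of the 5 calls 0 held in each of the 8 omissions of 1 array, and none of the 5 passed against 20 °C (adjusted p of 0.246 or higher). For psbD the harvests overlapped between the letters, with 12.12 and 9.62 at 78 h and 12.67 and 11.54 at 6 h, and the list's median was 0.07 in A and -0.48 in B.

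Of 4 measured enzymes that remove reactive oxygen 2 rose (9.29% of all probe sets did). SAPX, the stromal ascorbate peroxidase, had 11.14 and 11.07 at 78 h, against 10.22 and 10.45 at 6 h, and 10.31 to 10.42 at 20 °C. It rose by 0.77 ± 0.10 (adjusted p = 0.000124, and 0.00101 without the block), and its difference from 20 °C of 0.74 ± 0.14 passed with the block (adjusted p = 0.00511) and without it (0.0462). GR1, a glutathione reductase, had 11.12 and 11.14 at 78 h and 10.39 and 10.66 at 6 h, with 9.45 to 9.85 at 20 °C. It was above the 20 °C plants at 6 h already and rose by 0.61 ± 0.12 (adjusted p = 0.00284). Of 12 glutathione transferases 1 rose, a share near the 9.29% of all probe sets. This was GSTU26, by 0.74 ± 0.17 (adjusted p = 0.00748).

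Several of these smaller calls at 10 °C were lost when 1 array was left out, with adjusted p up to 0.277 for AT1G56190, 0.157 for CHLM, 0.068 for LHCB4.3, 0.0646 for GR1, 0.143 for GSTU26 and 0.205 for psbD. The A array of 10 °C at 6 h was among the decisive arrays for all of these except psbD, whose call was lost without either B array of 10 °C.

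Of 112 measured cytosolic ribosomal proteins, the structural proteins of the translation machinery, 62 rose, by small amounts, and the others did not pass the test. Near-identical copies of a ribosomal protein gene may share signal on a probe set. Of 67 measured proteins of the large (60S) subunit 39 were higher at 78 h and 0 lower, and of 45 proteins of the small (40S) subunit 23 were higher and 0 lower. The 62 make up 55.4% of the 112, against 9.29% of all probe sets, and the median of the 112 was 0.33, against 0.03 over all probe sets. Against 20 °C 41 of 112 passed, all positive (36.6%, against 4.33% of all). Of these 41 calls 1 was left without the replicate block, 18 after cyclic loess, and 7 and 8 without the 6 h and the 78 h A array of 10 °C. At 20 °C, 12 were left without the 6 h A array, 18 without the 78 h A array and 20 without the 78 h B array. Probe sets of like brightness also moved up more often: of the 1134 with mean signals in the middle range of these genes, 27.2% were higher, with a median of 0.11.

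AT2G19730, of the large subunit, had signals of 13.31 and 13.46 at 78 h, against 12.47 and 12.84 at 6 h, and 12.52 to 12.93 at 20 °C. It rose by 0.73 ± 0.07 (adjusted p = 1.41e-05, and 0.0507 without the block), with a difference from 20 °C of 0.86 ± 0.10 (adjusted p = 0.00023). AT2G40010, an acidic protein of the ribosomal stalk, had 8.74 and 9.16 at 78 h and 7.75 and 8.36 at 6 h and rose by 0.90 ± 0.11 (adjusted p = 0.000132, and 0.184 without the block). In the small subunit AT1G15930 had 13.21 and 13.45 at 78 h and 12.65 and 13.02 at 6 h, and AT5G61170 had 13.05 and 13.31 at 78 h and 12.28 and 13.01 at 6 h. They rose by 0.49 ± 0.07 and 0.54 ± 0.10.

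The shift was larger in A than in B. The median change of the 112 genes was 0.52 in A and 0.14 in B, and 86 of them were higher at 78 h in both. The median signal of the group at 10 °C was 12.29 in A and 12.42 in B at 78 h, against 11.74 in A and 12.34 in B at 6 h, so that the A array of 6 h stood lowest. Without that array 12 of the 62 calls remained, without the A array of 78 h 20, without the replicate block 5, and after cyclic loess 30, with a median of 0.22. Genes of ribosome assembly form a list of their own. Of 13 measured the 2 that changed both fell (5.43% of all probe sets did), and the list's median was 0.02 in A and -0.51 in B. PRH75, a nucleolar RNA helicase, fell by 0.54 ± 0.15 (adjusted p = 0.0254) and YAO, a nucleolar protein, by 0.48 ± 0.12 (adjusted p = 0.0108). Both calls were lost without the B array of either 10 °C harvest (adjusted p up to 0.308 and 0.128).

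**Figure D3:**
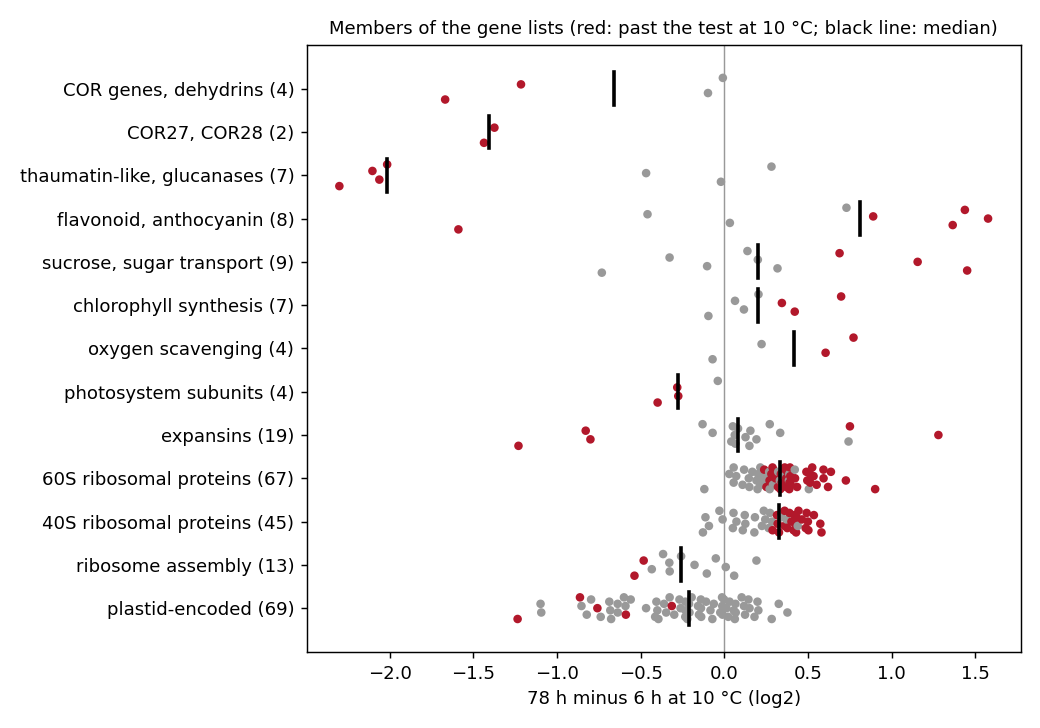
Change between 78 h and 6 h at 10 °C (log2, 78 h minus 6 h) of every measured member of 13 gene lists, with the number of members in brackets. Points are genes, red where they passed the test at 10 °C, spread vertically for legibility, and black lines are medians. The ribosomal proteins lie mostly to the right of 0 (medians of 0.33 in both subunits), and the COR genes split into 2 that fell and 2 near 0.

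Of 19 expansins, proteins that loosen the wall, 2 rose and 3 fell (9.29% of all probe sets were higher and 5.43% lower). EXLB1, an expansin-like protein, had 9.42 and 9.65 at 78 h, against 8.14 and 8.36 at 6 h, and 8.95 to 9.13 at 20 °C. It rose by 1.28 ± 0.12 (adjusted p = 1.6e-05, and 0.00292 without the block). EXPB1 rose by 0.75 ± 0.15. EXLA1 and EXLA2 fell by 1.23 ± 0.26 and 0.83 ± 0.15, and EXPA16 by 0.80 ± 0.18.

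The growth-associated expansin EXPA8 had 7.49 and 6.90 at 78 h and 6.78 and 6.13 at 6 h, far below its 8.22 to 10.08 at 20 °C. Its change of 0.74 ± 0.28 did not pass (adjusted p = 0.0955). EXGT-A3, a xyloglucan endotransglucosylase that recuts wall polymers, rose by 0.76 ± 0.14 (adjusted p = 0.0025). It was the single call among 10 genes of that kind, a share near the 9.29% of all probe sets that were higher. TUB9, a beta-tubulin of the microtubules, had 11.78 and 11.92 at 78 h and 12.45 and 12.41 at 6 h. It fell by 0.58 ± 0.09 (adjusted p = 0.000526, and 0.00343 without the block). Of 5 tubulins it was the 1 that passed (5.43% of all probe sets were lower).

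PYK10, a beta-glucosidase of endoplasmic reticulum bodies that is abundant in roots, had 7.76 and 8.52 at 78 h, against 9.69 and 9.94 at 6 h, and 9.12 to 9.93 at 20 °C. The 78 h arrays of 10 °C stood below all others. PYK10 fell by 1.68 ± 0.19 (adjusted p = 5.6e-05, and 0.00581 without the block). Of 4 measured root markers it was the 1 that changed (14.7% of all probe sets did). The other 3, with mean signals from 5.56 to 5.97, had changes between 0.06 and 0.13. DI19, a zinc finger gene first described for drought induction, had 10.44 and 10.39 at 78 h and 11.35 and 11.28 at 6 h, against 11.58 to 12.18 at 20 °C. It fell by 0.90 ± 0.09 (adjusted p = 3.54e-05, and 0.000501 without the block), with a difference from 20 °C of -1.23 ± 0.13 (adjusted p = 0.00014). BETA-VPE, a vacuolar processing protease, had 9.09 and 8.55 at 78 h and 8.31 and 8.08 at 6 h, with 6.61 to 6.88 at 20 °C. It rose by 0.62 ± 0.14 (adjusted p = 0.00737, and 0.285 without the block), and its difference from 20 °C did not pass (adjusted p = 0.197). The calls of EXLA1, EXPA16, EXPB1 and BETA-VPE at 10 °C were lost without 1 array of the 10 °C groups (adjusted p up to 0.0889, 0.0762, 0.0561 and 0.0801).

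The other temperatures were measured on other arrays. These carry the same letters A and B. A letter difference that is the same at both harvests cancels in a 78 h minus 6 h difference. One that differs between the harvests does not cancel and may be shared across temperatures. These arrays therefore cannot be taken as fully independent of those at 10 °C. Of the 2114 probe sets higher at 78 h at 10 °C, 97.8% had a positive 78 h minus 6 h difference at 8 °C and 92.1% at 12 °C, against 48.6% and 49.0% of all probe sets. At 14 °C and 17 °C the share was 67.0%, against 43.7% and 54.5% of all, and at 20 °C it was 45.6%, against 50.6%. Of the 1236 lower ones, 99.8% were negative at 8 °C, 96.4% at 12 °C, 82.8% at 14 °C and 67.6% at 17 °C, against 51.4%, 51.0%, 56.3% and 45.5% of all.

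The time differences of single genes can be set beside each other in the same way. AT2G34620 had time differences of 0.17 ± 0.11 at 20 °C, 1.86 at 12 °C, 2.04 at 10 °C and 1.71 at 8 °C. COR47 had 0.56 ± 0.20 at 20 °C, -1.25 at 12 °C, -1.67 at 10 °C and -1.34 at 8 °C. SWEET13 had 0.37 at 20 °C, 0.96 at 12 °C, 1.45 at 10 °C and 2.03 at 8 °C, and PYK10 had -0.40, -1.43, -1.68 and -2.25 at these temperatures. The 112 ribosomal proteins had a median time difference of -0.10 at 20 °C (0 higher and 0 lower), -0.13 at 17 °C (0 and 0), -0.15 at 14 °C (0 higher and 6 lower) and 0.01 at 12 °C (1 higher and 2 lower). It was 0.33 at 10 °C and 0.41 at 8 °C (78 higher and 0 lower). Of all 22746 probe sets, 3029 passed the test in either direction at 8 °C and 2072 at 12 °C. At 14 °C 925 passed, at 17 °C 19 and at 20 °C 0.

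**Figure D4:**
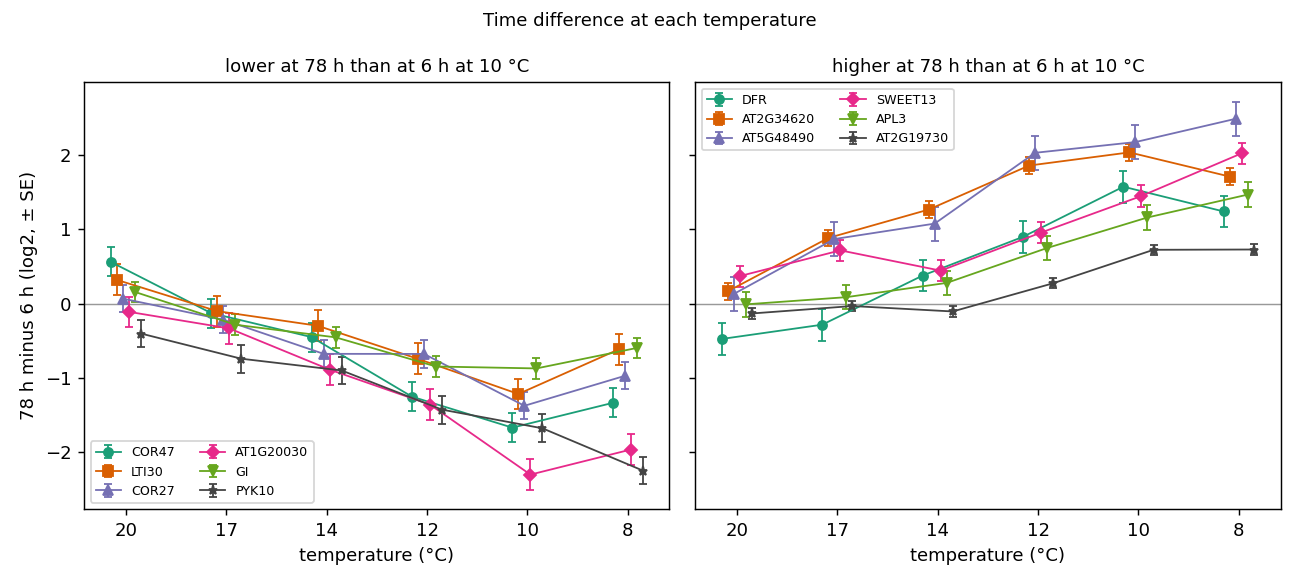
Difference between 78 h and 6 h (log2, 78 h minus 6 h, with SE from limma) at each of the 6 temperatures, 2 arrays per harvest. The left panel shows 6 genes that fell at 10 °C and the right panel 6 that rose, and points are shifted sideways for legibility. At 20 °C the estimates lie between -0.47 (DFR) and 0.56 (COR47), and at 10 °C between -2.30 (AT1G20030) and 2.18 (AT5G48490).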

How the data were processed

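The values are log2 signals of one-colour oligonucleotide arrays as the authors deposited them. They had been normalized between arrays before deposition, and neither the method nor the software is stated in the labels or the file header. The base of the logarithm was inferred from the range of the values. The arrays limit the precision to 2 values per group. All 24 arrays were fitted with limma 3.58.1 (R 4.3.3), with 12 group means, the letter A or B as a replicate block and empirical Bayes moderation (11 residual degrees of freedom). The 64 control probe sets were left out. Differences are 78 h minus 6 h at 10 °C, the same at 20 °C, and the first minus the second. Benjamini-Hochberg adjustment covered all 22746 probe sets, and every adjusted p in the text comes from this limma fit or a named alternative to it.

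The block rests on the shared labels A and B and on a check. The A minus B differences of all 66 pairs of groups correlated between 0.52 and 0.89, and those of the 6 pairs used here above 0.59.

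Genes were named from the given probe set annotation and the TAIR10.1 gene table, which matched 13436 of 13513 single-gene probe sets. The annotation lists no role, and roles are background knowledge. Named are the 15 highest and 15 lowest differences from 20 °C among genes past both tests in the same direction, the next 4 largest changes at 10 °C each way, up to 4 members per list, 12 genes fixed by name, and some members of added lists chosen after their values were seen. The comparison, the lists and these genes were chosen with earlier results of these data known. Where a gene had more than 1 probe set, the one with the highest mean signal was used.

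Alternatives were no replicate block, a block within each harvest, only 8 or 4 arrays, median centring, cyclic loess, no dim probe sets (25%), trend and robust moderation, and leaving out each of the 8 arrays. Chosen after seeing the data were a fit of 16 arrays and array weights. The fit was tested on simulated data before use. Figures were drawn with matplotlib 3.10.9.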

Additional observations from a re-analysis of the deposited data

Results flagged for a closer look

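The 78 h minus 6 h change differed between 10 °C and 20 °C, by limma's test of the difference itself, for the 15 genes at each end of the ranking described above. The differences of 10 °C minus 20 °C, in log2 units, were positive for DFR (2.05), AT5G48490 (2.04), AT2G34620 (1.87), UF3GT (1.72), SECA2 (1.60), AT2G03750 (1.60) and AT3G47560 (1.59). They were likewise positive for AT1G72030 (1.54), AT1G60590 (1.45), AT4G14090 (1.45), EXLB1 (1.37), RR16 (1.31), AT5G19750 (1.27), AT1G23205 (1.27) and AT1G68585 (1.24).

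Negative differences belonged to AT5G62360 (-3.16), AT1G51090 (-2.65), COR47 (-2.23), AT4G36010 (-2.21), AT1G20030 (-2.19), AT1G32860 (-2.15) and AT3G59350 (-1.97). Further ones were those of AT1G76590 (-1.92), AT1G73480 (-1.86), AT3G55760 (-1.80), AT3G05640 (-1.79), AT4G09760 (-1.79), AT1G22890 (-1.71), AT2G15960 (-1.68) and AT1G68500 (-1.65). The genes were drawn from those past this test and ranked by this difference. That they pass and how large the difference is are therefore descriptions. For 2 of them the 20 °C plants matter most to the picture. AT2G15960 had 9.59 and 9.01 at 78 h and 10.97 and 9.83 at 6 h at 10 °C, against 11.17 and 10.62 at 78 h and 10.57 and 10.06 at 6 h at 20 °C, so that its difference from the 20 °C plants was -1.59 at 78 h and 0.09 at 6 h. For AT1G22890 this difference was -2.06 at 78 h and -0.35 at 6 h.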

How the results depend on the processing

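The counts reported above are 3350 calls at 10 °C, 1577 against 20 °C and 0 at 20 °C. Without the replicate block the calls were 798 and 93, and with the replicate block within each harvest 4395, 2548 and 8. With only the 8 arrays of both temperatures they were 1818 and 339, and with only the 4 arrays of 10 °C, where 1 residual degree of freedom is left, 0 at 10 °C (4036 at an unadjusted p below 0.05). Trend and robust moderation gave 2 calls at 20 °C. Median centring, cyclic loess, the filter on dim probe sets, trend and robust moderation, 16 arrays and array weights kept the first counts within 1.5 times, although the share of higher calls at 10 °C was 48.2% after cyclic loess, against 63.1% in the deposited scaling. Leaving out 1 array gave 1522 to 3310 calls at 10 °C, 595 to 1471 against 20 °C and 0 to 1 at 20 °C; the lowest counts were those without the 6 h A array of 10 °C, and against 20 °C 771 were left without the 78 h B array of 20 °C. Of the 80 genes named here with a call at 10 °C, 56 kept it in each of the 8 omissions and 41 without the block, and of 62 called against 20 °C, 37 and 12. Signs turned only for COR15A and COR15B, which were not called. Over the omissions COR15A ranged from -0.17 to 0.15 at 10 °C and from -0.22 to 0.10 against 20 °C, and COR15B from -0.34 to 0.15 at 10 °C and from -0.40 to 0.086 (against 20 °C). No named gene had several probe sets, so their mean could not be tried. The cause of these changes was not tested.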

Other observations

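Of 46 UDP-glycosyltransferases, which attach sugars to hormones and secondary metabolites, 4 rose and 4 fell at 10 °C, shares near those of all probe sets (9.29% higher and 5.43% lower). Besides the anthocyanin and flavonol genes these included UGT76C2, which conjugates cytokinins. It had 8.10 and 8.36 at 78 h, against 7.73 and 7.67 at 6 h, and rose by 0.53 ± 0.09 (limma adjusted p = 0.00159, and 0.0865 without the block). UGT88A1 rose by 0.67 ± 0.11 (adjusted p = 0.00108), and its difference from 20 °C did not pass (adjusted p = 0.0812).

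Of 21 family 1 beta-glucosidases 1 rose and 3 fell (9.29% and 5.43% of all probe sets did). BGLU15 had 7.07 and 7.41 at 78 h, against 6.68 and 6.89 at 6 h, and between 6.46 and 6.86 at 20 °C. It rose by 0.46 ± 0.09 (adjusted p = 0.00218, and 0.111 without the block). BGLU44 fell by 0.42 ± 0.12 (adjusted p = 0.0251), a call that was lost without either A array of 10 °C (adjusted p up to 0.242). Of 3 measured genes in the list for carbon starvation 1 rose (9.29% of all probe sets did). This was MCCB, a subunit of methylcrotonyl-CoA carboxylase in leucine breakdown, by 0.43 ± 0.11 (adjusted p = 0.018, and up to 0.138 without 1 array). Of 10 heat shock proteins 1 changed, against 14.7% of all probe sets. This was AT2G29500, a small heat shock protein whose probe set is among the dimmest 25%, with 5.25 and 5.39 at 78 h and 4.95 and 4.96 at 6 h. It rose by 0.36 ± 0.07 (adjusted p = 0.00403), a call that was lost without the 6 h A array or the 78 h B array of 10 °C (adjusted p up to 0.0707).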
